A study of Mus musculus with 6 samples.

Results

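The fibrinogen chains are encoded by 3 mouse genes, Fga, Fgb and Fgg, which hold the α, β and γ chain. They were taken by gene symbol from the deposited tables, in which each symbol has 1 row, so all 3 members were found among 55401 genes. All 3 passed the filter on low counts that left 17194 genes for testing. The libraries were made from poly(A) RNA of mouse kidney, 3 of the group Cdo1KKO/Sed, whose genotype is named Cdo1KKO, and 3 of the group WT/Sed, whose genotype is labelled WT (wild type). Each library is labelled as a separate biological replicate. Mice of both groups had been made diabetic with streptozotocin, a toxin of insulin-producing beta cells, so no group without diabetes was analysed here. The study asked which pathways in diabetic kidney depend on tubular Cdo1, the gene of cysteine dioxygenase. The sources used here give neither the promoter that drives the knockout, nor the meaning of Sed, nor the age and sex of the mice.

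Fibrinogen is a soluble plasma protein in which a pair of α, a pair of β and a pair of γ chains are joined by disulfide bonds. Thrombin cuts short peptides from the α and β chains, the remaining molecules polymerise into fibrin, and factor XIII cross-links the α and γ chains into a stable clot. Hepatocytes are the main source in the healthy animal, where interleukin-6 acting through STAT3, together with glucocorticoids, raises the transcription of all chains in the acute-phase response. In rodent kidney, fibrinogen transcripts are also known from tubule cells after injury.

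The genes lie side by side on chromosome 3 within 42.1 kb (GRCm38, GENCODE M21). Fgg (ENSMUSG00000033860.13, chr3:83007724-83015049) and Fga (ENSMUSG00000028001.16, chr3:83026076-83033627) are on the plus strand, and Fgb (ENSMUSG00000033831.5, chr3:83040141-83049863) is on the minus strand, so that Fga and Fgb are transcribed towards each other. The gap between Fgg and Fga is 11026 bases and that between Fga and Fgb 6513 bases. The annotation gives Fga a transcript of 5 exons and one of 6 exons, Fgb 1 transcript of 8 exons, and Fgg a transcript of 10 exons and one of 9 exons. Counts per gene pool these transcripts.

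Because the chains changed together, the sequences around their start sites are shown. They cover 250 bases before to 50 bases after the start in RefSeq (GRCm38.p6), read along the strand of the gene: chr3:83025903-83026202 on the plus strand for Fga, chr3:83049814-83050113 on the minus strand for Fgb, and chr3:83007474-83007773 on the plus strand for Fgg. Capitals mark matches, on either strand, to 3 short motifs of factors known to act on liver acute-phase genes. These are CTGGGAA (the core of the interleukin-6 response element), TTCNNNGAA (the STAT palindrome) and TTGCNNAA (C/EBP).
Fga promoter: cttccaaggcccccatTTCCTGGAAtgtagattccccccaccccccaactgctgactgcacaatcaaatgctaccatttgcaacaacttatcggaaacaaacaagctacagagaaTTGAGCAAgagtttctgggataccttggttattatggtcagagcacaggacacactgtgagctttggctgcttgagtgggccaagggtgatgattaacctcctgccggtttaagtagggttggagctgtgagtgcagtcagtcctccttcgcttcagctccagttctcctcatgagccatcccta
Fgb promoter: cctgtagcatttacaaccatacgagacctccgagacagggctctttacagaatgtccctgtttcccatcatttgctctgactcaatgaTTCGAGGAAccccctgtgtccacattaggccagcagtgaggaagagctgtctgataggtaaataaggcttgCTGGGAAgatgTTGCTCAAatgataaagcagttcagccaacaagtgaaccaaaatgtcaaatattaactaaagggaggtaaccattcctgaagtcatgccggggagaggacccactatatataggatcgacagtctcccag
Fgg promoter: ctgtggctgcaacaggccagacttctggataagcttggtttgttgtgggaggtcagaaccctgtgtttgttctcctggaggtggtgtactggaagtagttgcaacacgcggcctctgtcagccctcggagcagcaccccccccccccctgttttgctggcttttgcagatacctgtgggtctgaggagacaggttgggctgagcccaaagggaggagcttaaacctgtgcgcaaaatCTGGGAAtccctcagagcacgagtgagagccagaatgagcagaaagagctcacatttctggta

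The Fgb window held all 3 motifs, the Fga window 2 and the Fgg window 1. In Fgb the STAT palindrome began at position -162 from the start, the interleukin-6 element core at -91 and the C/EBP match at -80. In Fga the STAT palindrome began at -234, and the C/EBP match at -135 lies on the opposite strand. Both positions count from the RefSeq start of Fga, which lies downstream of the GENCODE gene start at 83026076. For Fgb and Fgg the RefSeq and GENCODE starts agree. In Fgg the interleukin-6 element core began at -13. No match overlapped another. Among 32851 mouse promoter windows of the same length, CTGGGAA was found in 11.1%, TTCNNNGAA in 8.3% and TTGCNNAA in 10.8%. One further motif, TATAAA, was found in 13.6% of all windows and in none of these 3. The motifs were chosen with the sequences known, and a match describes letters only.

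Total counts per library ran from 28145261 to 43872779, spread over 21993 to 24418 genes. Cdo1, the targeted gene, was counted in every library, at 110.1 ± 7.94 CPM in Cdo1KKO/Sed and 184 ± 5.79 CPM in WT/Sed (SD, n = 3 each). CPM are counts relative to the scaled library size, used here to compare groups within a gene. The log2 fold change of Cdo1 was -0.74 ± 0.06, where the SE is approximate (edgeR quasi-likelihood test, Benjamini-Hochberg adjusted p = 4.64e-06). Rose and fell are used where this adjusted p, taken over all genes tested, was under 0.05. By that rule 6435 of 17194 genes changed (37.4%), 3250 upwards (18.9%) and 3185 downwards (18.5%), and the median log2 fold change was 0.01.

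All 3 fibrinogen genes rose in Cdo1KKO/Sed, against 18.9% of all genes tested. None of them overlapped between groups, and 25.7% of the genes tested also had every Cdo1KKO/Sed library above every WT/Sed library. In Cdo1KKO/Sed kidneys Fga and Fgg stood among the 25 most abundant of 55401 genes in every library. The size of the difference was ordered Fgb, Fgg, Fga, from the largest to the smallest. In whole kidney, more cells of a type and more RNA per cell cannot be told apart.

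Fga, the α chain gene, had 2159, 2166 and 2159 TPM in Cdo1KKO/Sed, against 59.7, 49.0 and 65.7 TPM in WT/Sed. TPM are relative transcript levels that allow for gene length, and they are used here to compare the chains with each other. On this scale the Cdo1KKO/Sed libraries were all but equal, and the lowest of them was 32.9 times the highest WT/Sed library. On the CPM scale Fga had 2387, 2444 and 2382 in Cdo1KKO/Sed and 79.1, 65.9 and 85.9 in WT/Sed. Its log2 fold change was 4.96 ± 0.10, or 31.2-fold (edgeR adjusted p = 7.90e-10). By abundance Fga held rank 23, 24 and 23 in Cdo1KKO/Sed and rank 1647, 1937 and 1508 in WT/Sed.

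Fgg, the γ chain gene, whose product carries the main binding site for the platelet integrin and also binds the leukocyte integrin of Itgam and Itgb2, had 2156, 2133 and 2131 TPM in Cdo1KKO/Sed, against 14.2, 11.03 and 20.05 TPM in WT/Sed. The groups were more than 100 times apart: the lowest Cdo1KKO/Sed library was 106 times the highest WT/Sed library. On the CPM scale Fgg had 1657, 1674 and 1635 in Cdo1KKO/Sed and 13.1, 10.3 and 18.2 in WT/Sed, a log2 fold change of 6.88 ± 0.24, or 118-fold (edgeR adjusted p = 1.01e-05). Fgg followed Fga directly in Cdo1KKO/Sed, at ranks 24, 25 and 24, but lay at ranks 5566, 6434 and 4393 in WT/Sed. A long noncoding RNA on the opposite strand, Gm30097, overlaps Fgg by 765 bases. It had 13, 13 and 22 counts in Cdo1KKO/Sed and 19, 10 and 28 in WT/Sed, while Fgg had 54119, 66538 and 74991 counts in Cdo1KKO/Sed and 508, 275 and 750 in WT/Sed. Whether counting used the strand is not stated, so reads of the overlap cannot be assigned.

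Fgb, the β chain gene, had 537, 486 and 574 TPM in Cdo1KKO/Sed, against 0.981, 0.705 and 1.79 TPM in WT/Sed. It was the least abundant chain in each library of both groups, and the one with the widest gap, the lowest Cdo1KKO/Sed library being 271 times the highest WT/Sed library. The WT/Sed values rest on 64, 32 and 122 counts, with 95% Poisson intervals of 49.3 to 81.7, 21.9 to 45.2 and 101 to 146, which cover counting error only. The Cdo1KKO/Sed libraries held 24552, 27584 and 36781 counts. On the CPM scale Fgb had 752, 694 and 802 in Cdo1KKO/Sed and 1.65, 1.20 and 2.97 in WT/Sed, a log2 fold change of 8.54 ± 0.28, or 371-fold (edgeR adjusted p = 8.43e-06). Its rank by abundance was 149, 172 and 136 in Cdo1KKO/Sed and 14106, 15156 and 12258 in WT/Sed. A 2-sided exact permutation test of each chain's CPM gave p = 0.1, below which 3 libraries against 3 cannot go.

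**Figure D1:**
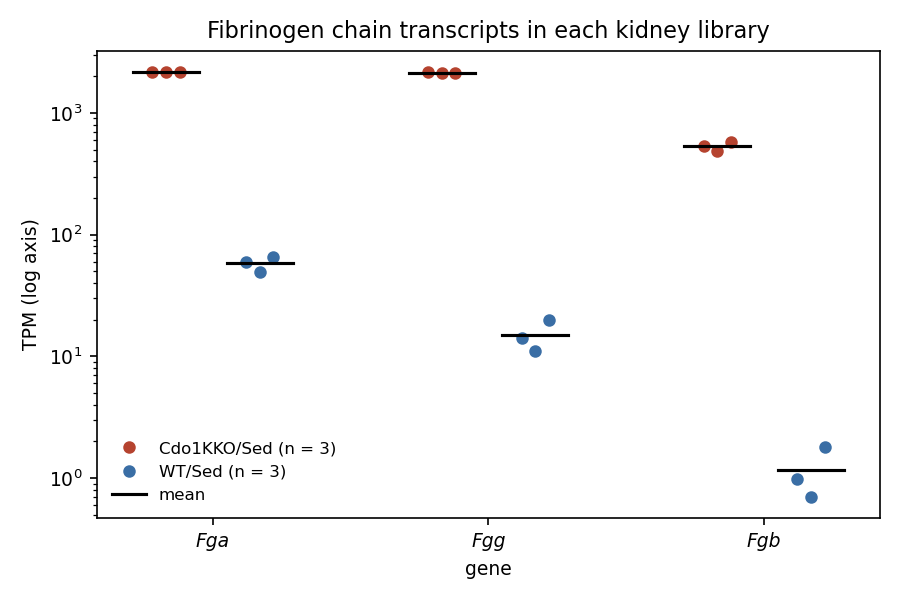
TPM of each fibrinogen gene on a log axis, 1 point per library, with the mean of each group as a line (Cdo1KKO/Sed n = 3, WT/Sed n = 3). Fga and Fgg lie between 2131 and 2166 TPM in Cdo1KKO/Sed while the chains are spread from 65.7 to 0.705 TPM in WT/Sed, and no gene overlaps between groups.

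The spread between libraries was small in Cdo1KKO/Sed and larger in WT/Sed. The coefficient of variation of the TPM was 0.186% for Fga, 0.643% for Fgg and 8.33% for Fgb in Cdo1KKO/Sed, against 14.5%, 30.3% and 48.7% in WT/Sed. The near equality of Fga belongs to the TPM scale. In Cdo1KKO/Sed it had 2161 ± 4.02 TPM but 2404 ± 34.1 CPM (SD, n = 3), a wider relative spread. All chains had the same order of libraries in WT/Sed, with replicate 3 highest and replicate 2 lowest, and the highest was 1.34 times the lowest for Fga, 1.82 times for Fgg and 2.54 times for Fgb. Of the 10 markers of injured proximal tubule, 5 had that order too and 2, Vcam1 and Cdh6, had the opposite order. Havcr1 and Lcn2, which tubule cells make after injury, are 2 of those 5 and were picked after their values were seen. Havcr1 had 423, 357 and 461 CPM in Cdo1KKO/Sed and 10.7, 3.64 and 16.4 CPM in WT/Sed. Lcn2 had 1174, 1140 and 1195 CPM in Cdo1KKO/Sed and 5.01, 0.8996 and 5.98 CPM in WT/Sed. Among the other marker lists, 8 of 12 tested hepatocyte markers had the order of the chains and 1 the opposite. All 10 macrophage, all 5 podocyte and all 5 endothelial markers had the opposite one. Of 10 markers of healthy proximal tubule 3 had the order of the chains and 7 the opposite. For 9 loop, distal tubule and collecting duct markers these numbers were 3 and 5, and for 7 red blood cell markers 0 and 5. For 4 platelet markers they were 2 and 0, for 5 neutrophil markers 2 and 0, and for 6 fibroblast and pericyte markers 0 and 3. The share of all genes tested with either order was not counted, so these numbers have no background to be set against. Of the replicate pairs, WT/Sed 2 and 3 differed most (chi-square per degree of freedom of 35.35). The part of any cell type in this spread was not tested.

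The proportions of the chains differed between the groups. Summed over the 3 genes, the transcript level was 4852, 4785 and 4864 TPM in Cdo1KKO/Sed and 74.9, 60.8 and 87.5 TPM in WT/Sed. In Cdo1KKO/Sed, Fga made up 44.5%, 45.3% and 44.4% of this sum, Fgg 44.4%, 44.6% and 43.8%, and Fgb 11.1%, 10.2% and 11.8%. In WT/Sed, Fga made up 79.8%, 80.7% and 75.0%, Fgg 18.9%, 18.2% and 22.9%, and Fgb 1.31%, 1.16% and 2.05%. The α chain transcript thus dominated in WT/Sed, whereas the α and γ chain transcripts were level in Cdo1KKO/Sed and the β chain transcript stayed below both.

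**Figure D2:**
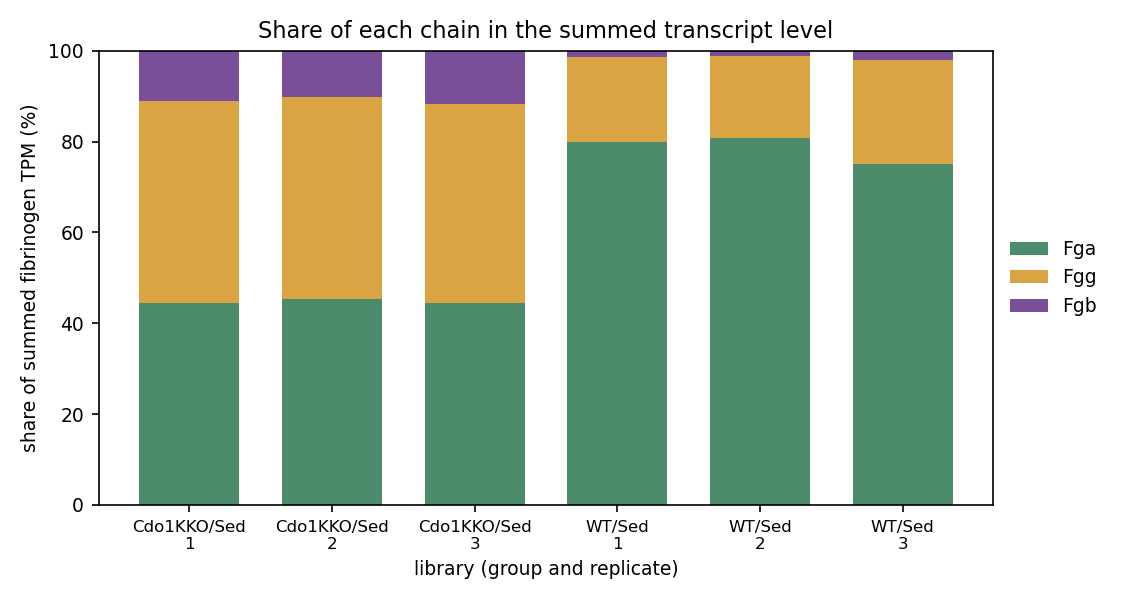
Share of each chain in the summed fibrinogen TPM of a library, in percent, as stacked bars for the 3 Cdo1KKO/Sed libraries and the 3 WT/Sed libraries. Fga holds 44.4% to 45.3% in Cdo1KKO/Sed and 75.0% to 80.7% in WT/Sed, and Fgb 10.2% to 11.8% against 1.16% to 2.05%.

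Set against each other within a library, Fga had 1.00, 1.01 and 1.01 TPM per TPM of Fgg in Cdo1KKO/Sed, against 4.21, 4.45 and 3.28 in WT/Sed. The ratio of Fga to Fgb was 4.02, 4.46 and 3.76 in Cdo1KKO/Sed, against 60.9, 69.5 and 36.7 in WT/Sed. The ratio of Fgg to Fgb was 4.01, 4.39 and 3.71 in Cdo1KKO/Sed, against 14.5, 15.6 and 11.2 in WT/Sed. None of the 3 ratios overlapped between groups. Fgb was higher relative to both other chains in Cdo1KKO/Sed, and Fga was lower relative to both. On the log2 scale the ratio of Fga to Fgb averaged 2.03 ± 0.12 in Cdo1KKO/Sed and 5.75 ± 0.49 in WT/Sed, a difference of -3.72. The ratio of Fga to Fgg averaged 0.01 ± 0.01 in Cdo1KKO/Sed and 1.98 ± 0.24 in WT/Sed, a difference of -1.97. The ratio of Fgb to Fgg averaged -2.01 ± 0.12 in Cdo1KKO/Sed and -3.77 ± 0.25 in WT/Sed, a difference of 1.76. Exact permutation tests gave p = 0.1 for each, and 0.1 after adjustment over the 3 ratios, which is the smallest value possible here.

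The ratios within a library depend on the gene lengths used. Their differences between groups do not, as long as 1 length per gene serves both groups. Which transcripts of Fga and Fgg were used in each group was not tested. The deposited TPM imply lengths equal to the total exon bases of the annotation, which are 3010 for Fga, 3810 for Fgb and 2093 for Fgg. With the shortest annotated transcript of each gene as its length (2083, 3810 and 1695 bases), an alternative chosen after seeing the data, Fga to Fgg was 1.17 to 1.19 in Cdo1KKO/Sed and 3.83 to 5.20 in WT/Sed. Under those lengths Fga to Fgb was 5.43 to 6.44 in Cdo1KKO/Sed and 53.0 to 100.5 in WT/Sed. The levels of Fga and Fgg in Cdo1KKO/Sed were therefore equal only under the first set of lengths.

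Apart from Tlr2, the tested protein-coding genes beside the fibrinogen cluster did not rise. Plrg1, a splicing factor gene whose start lies 47.8 kb from that of Fgg and next to Fgb, had a log2 fold change of -0.01 ± 0.07 (adjusted p = 0.919 by edgeR). On the TPM scale, which is not corrected for the shift of all genes, its value was 0.23 to 0.24 and passed the test. On the other side Lrat, a retinol-esterifying enzyme gene 103.8 kb away, fell by 0.75 ± 0.16 on the log2 scale (edgeR adjusted p = 0.00346), a call that the fits to TPM did not make. Rbm46 had a value of -1.22 ± 0.54 (adjusted p = 0.101), and Gucy1a1, Map9, Sfrp2 and Tmem131l had values between -0.45 and 0.30 that did not pass the test. Tmem131l passed it upwards with library size as the only scaling (0.46), and Rbm46 downwards without WT/Sed replicate 2 (-1.51). Npy2r and Dchs2 had too few counts to be tested. Tlr2, a receptor of bacterial lipoproteins 834 kb from Fgg, was the only tested gene of the 10 flanking genes that rose. Its log2 fold change was 2.23 ± 0.38 (edgeR adjusted p = 0.00269), and 18.9% of all genes tested rose. It had 252, 327 and 324 counts in Cdo1KKO/Sed and 60, 16 and 106 in WT/Sed.

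**Figure D3:**
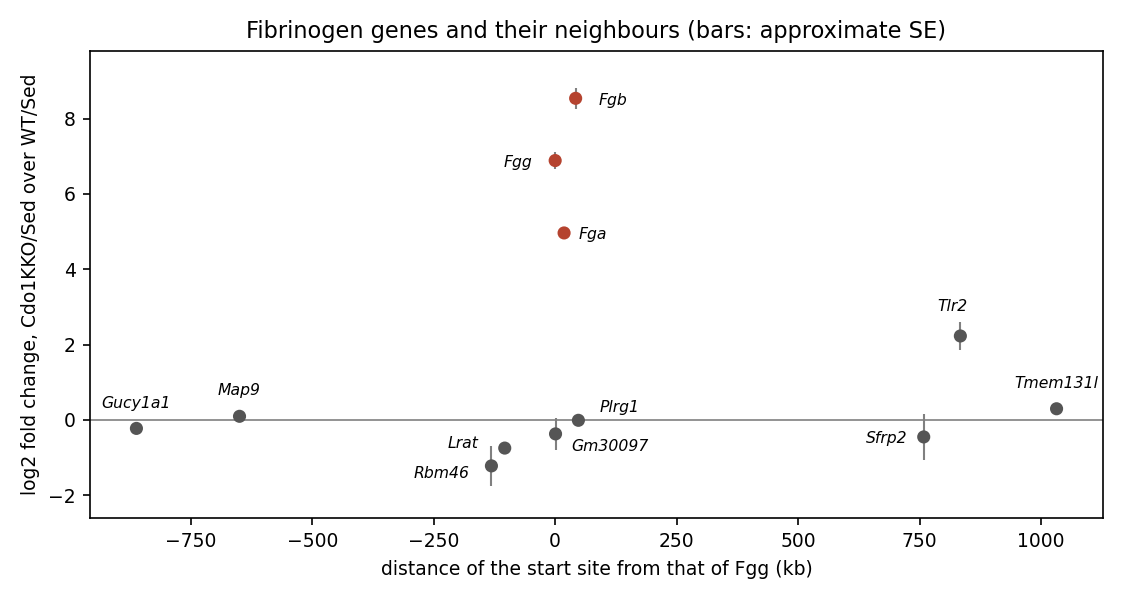
Log2 fold change (Cdo1KKO/Sed over WT/Sed) of the fibrinogen genes, in red, and of their tested neighbours, in grey, by the distance of each start site from that of Fgg in kb. Bars are approximate standard errors. The 3 fibrinogen genes lie at 4.96 to 8.54, while Plrg1, 47.8 kb away, lies at -0.01.

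Of the interleukin-6 family and its STAT3 pathway, 16 of 17 genes were tested. Of these, 9 rose, 1 fell and 6 did not pass the test, beside 18.9% and 18.5% of all genes that rose and fell. The median log2 fold change was 0.72 against 0.01 for all genes. Stat3, the transcription factor of the pathway, averaged 154 ± 5.45 CPM in Cdo1KKO/Sed and 58.7 ± 2.99 CPM in WT/Sed, a log2 fold change of 1.39 ± 0.06 (edgeR adjusted p = 2.35e-08). Clcf1, a ligand of the family, averaged 31.4 ± 2.24 CPM in Cdo1KKO/Sed and 4.95 ± 0.756 CPM in WT/Sed, and Osmr, the oncostatin M receptor, 28.6 ± 2.39 CPM in Cdo1KKO/Sed and 3.23 ± 1.17 CPM in WT/Sed. Il6 itself had 44, 42 and 88 counts in Cdo1KKO/Sed and 0, 2 and 0 in WT/Sed, and was called higher (edgeR adjusted p = 7.49e-05). Socs3, a feedback inhibitor induced by STAT3 and named after its values were seen, averaged 29.6 ± 1.14 CPM in Cdo1KKO/Sed and 1.71 ± 1.05 CPM in WT/Sed, a log2 fold change of 4.20 ± 0.36. Il11ra1 was the gene that fell (log2 fold change -0.30 ± 0.09), and this call was lost with library size as the only scaling and when any Cdo1KKO/Sed library or WT/Sed replicate 1 was left out.

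Of 9 transcription factors known to act on fibrinogen genes in hepatocytes, 4 rose, 2 fell and 3 did not pass the test. Their median log2 fold change was 0.05. Over all genes tested 18.9% rose and 18.5% fell. Stat3, counted here as well, Cebpd, Cebpb and the glucocorticoid receptor gene Nr3c1 rose. Cebpd averaged 19.6 ± 3.29 CPM in Cdo1KKO/Sed and 4.59 ± 1.76 CPM in WT/Sed, a log2 fold change of 2.12 ± 0.27 (edgeR adjusted p = 8.96e-04). Hnf4a, a nuclear receptor of liver and proximal tubule, averaged 490 ± 16.6 CPM in Cdo1KKO/Sed and 828 ± 54.4 CPM in WT/Sed, a log2 fold change of -0.76 ± 0.06 (edgeR adjusted p = 2.83e-06). Cebpa (-0.04) and Usf1 (0.05) did not pass the test, though Usf1 was called higher (0.28) by limma on log2(TPM + 1).

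The fibrinogen genes belong to the liver acute-phase response, and most of the other genes listed for that response rose as well. Of 23 listed, 20 were tested. Of these, 17 rose, none fell and 3 did not pass the test, beside 18.9% and 18.5% of all genes that rose and fell. The median of 5.83 was the same with the 4 genes at 0 counts in WT/Sed set to their lower bound. Lrg1 averaged 82.4 ± 4.78 CPM in Cdo1KKO/Sed and 2.12 ± 0.126 CPM in WT/Sed, a log2 fold change of 5.28 ± 0.09 (edgeR adjusted p = 1.2e-11). Saa1, a serum amyloid A gene, had 449, 421 and 451 CPM in Cdo1KKO/Sed and 0, 0 and 0.0487 CPM in WT/Sed. Orm2, an orosomucoid gene, had 179, 159 and 184 CPM in Cdo1KKO/Sed and 0, 0 and 0.0487 CPM in WT/Sed. The orosomucoid and serum amyloid genes have close copies, between which counting can split reads. Complement C3, named after its values were seen, averaged 400.1 ± 22.5 CPM in Cdo1KKO/Sed and 14.9 ± 1.95 CPM in WT/Sed. Apcs, Itih3 and A2m were the 3 that did not pass the test (log2 fold changes 0.20, 0.03 and 1.51). Crp, Itih4 and Hamp had too few counts to be tested. Lcn2 is on this list and also on that of injured proximal tubule markers.

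The genes that act on fibrinogen in clotting had calls in both directions. Of 26 coagulation factors and inhibitors, 21 were tested, and 8 rose, 3 fell and 10 did not pass the test, beside 18.9% and 18.5% of all genes that rose and fell. Their median log2 fold change was 0.06, against 0.01 for all genes. F3, tissue factor, which starts the cascade, averaged 35.1 ± 0.742 CPM in Cdo1KKO/Sed and 15.8 ± 0.699 CPM in WT/Sed, a log2 fold change of 1.15 ± 0.07 (edgeR adjusted p = 4.39e-07). F10, the protease that activates prothrombin, rose but was low, with 1.19 ± 0.395 CPM in Cdo1KKO/Sed and 0.0917 ± 0.0147 CPM in WT/Sed. Prothrombin itself, F2, the precursor of the enzyme that cuts fibrinogen, was low in both groups, at 0.683 ± 0.448 CPM in Cdo1KKO/Sed and 0.9002 ± 0.262 CPM in WT/Sed (edgeR adjusted p = 0.546). The anticoagulant Proc fell by 0.49 ± 0.07 on the log2 scale, and its cofactor Pros1 rose by 0.83 ± 0.07. F13b, the carrier subunit of factor XIII, and Klkb1, plasma prekallikrein, were the other 2 that fell (log2 fold changes -0.36 ± 0.08 and -0.82 ± 0.26), named after their values were seen. Both of these calls were lost with library size as the only scaling, which left 1 gene that fell, and that of Klkb1 also without any 1 Cdo1KKO/Sed library or WT/Sed replicate 2.

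Of 14 fibrinolysis genes 11 were tested, and 5 rose, 2 fell and 4 did not pass the test. Over all genes tested 18.9% rose and 18.5% fell, so the share that fell here was close to that of all genes. The median of the list was 0.05. Plaur, the urokinase receptor, averaged 11.7 ± 0.277 CPM in Cdo1KKO/Sed and 3.12 ± 0.576 CPM in WT/Sed, a log2 fold change of 1.91 ± 0.15 (edgeR adjusted p = 3.02e-06). Cpb2, which removes the plasminogen-binding lysines of fibrin, rose by 1.24 ± 0.29 on the log2 scale, and S100a10, a plasminogen receptor subunit, by 0.41 ± 0.05. Plau, urokinase, and Hrg fell (log2 fold changes -0.34 ± 0.10 and -0.52 ± 0.17), calls that were both lost with library size as the only scaling, with the TPM values, or without Cdo1KKO/Sed replicate 1 or 3 or WT/Sed replicate 1.

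Among 15 receptors and binding proteins of fibrin and fibrinogen, 9 rose, none fell and 6 did not pass the test. Their median log2 fold change was 0.74. Over all genes tested 18.9% rose and 18.5% fell. Itgam, the α chain of the leukocyte integrin that binds the fibrinogen γ chain, averaged 6.81 ± 0.966 CPM in Cdo1KKO/Sed and 0.781 ± 0.239 CPM in WT/Sed, a log2 fold change of 3.15 ± 0.24 (edgeR adjusted p = 2.35e-06). Icam1, an endothelial and epithelial adhesion molecule that fibrinogen bridges to leukocytes, averaged 28.5 ± 1.07 CPM in Cdo1KKO/Sed and 9.88 ± 0.182 CPM in WT/Sed, a log2 fold change of 1.53 ± 0.08 (edgeR adjusted p = 1.13e-07). Itgb3 and Sdc1 rose by 1.91 ± 0.24 and 1.74 ± 0.08 on the log2 scale. Itgam is also a macrophage marker, and 7 of 10 macrophage markers rose, 2 did not pass the test and 1, Csf1r, fell (log2 fold change -0.33 ± 0.09), a call lost with library size as the only scaling and without Cdo1KKO/Sed replicate 1. Their summed level was 308 to 331 TPM in Cdo1KKO/Sed and 87.1 to 188 TPM in WT/Sed, most of it from Cd74, which was not called (edgeR adjusted p = 0.0797). Without 1 library (any of Cdo1KKO/Sed or WT/Sed replicate 1) 3 or 4 of these markers rose. The part of macrophages in the receptor counts was not tested.

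Genes with the fibrinogen-like domain that the β and γ chains carry were examined as a family. Of 19 listed, 14 were tested, and 7 rose, 1 fell and 6 did not pass the test, beside 18.9% and 18.5% of all genes that rose and fell. The median log2 fold change was 0.24, against 6.88 for the chains and 0.01 for all genes. Without any 1 Cdo1KKO/Sed library, or without WT/Sed replicate 1, 4 rose. Angptl7 averaged 103 ± 4.63 CPM in Cdo1KKO/Sed and 10.3 ± 1.54 CPM in WT/Sed, a log2 fold change of 3.32 ± 0.10 (edgeR adjusted p = 3.48e-09). Fgl2, a membrane-bound prothrombinase, rose by 1.61 ± 0.24 and Angpt2 by 0.92 ± 0.15 on the log2 scale, and Angptl4, an inhibitor of lipoprotein lipase, fell by 0.75 ± 0.11. Fgl1, a hepatocyte gene of this family named after its values were seen, had a log2 fold change of -0.61 ± 0.25 (edgeR adjusted p = 0.0752).

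The chains are folded and joined in the endoplasmic reticulum. Of 13 genes for disulfide exchange and folding there, 8 rose, 2 fell and 3 did not pass the test. Their median log2 fold change was 0.24. Over all genes tested 18.9% rose and 18.5% fell. Hspa5, the chaperone BiP, averaged 1266 ± 64.7 CPM in Cdo1KKO/Sed and 560.0 ± 2.58 CPM in WT/Sed, a log2 fold change of 1.18 ± 0.05 (edgeR adjusted p = 3.49e-08). Hsp90b1, Pdia4 and Pdia6 rose by 0.61 ± 0.05, 0.53 ± 0.06 and 0.44 ± 0.07 on the log2 scale. P4hb, protein disulfide isomerase, had a value of -0.15 ± 0.04 and Ero1lb one of -0.27 ± 0.09. Both were called lower, and neither call was made with library size as the only scaling or without any 1 Cdo1KKO/Sed library. On the TPM scale P4hb turned to a value of 0.11 and was called higher.

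**Figure D4:**
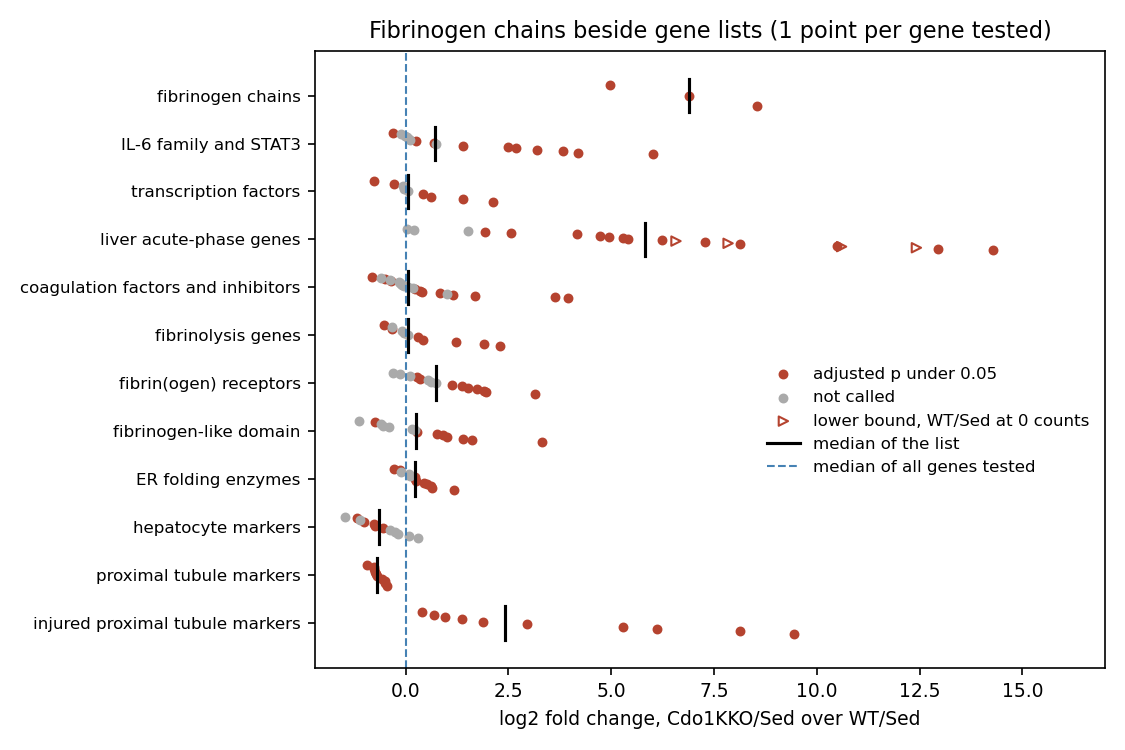
Log2 fold change (Cdo1KKO/Sed over WT/Sed) of every tested gene of the fibrinogen chains and of 11 gene lists, 1 point per gene, red where the edgeR adjusted p was under 0.05 and grey otherwise. Open triangles are lower bounds for genes at 0 counts in WT/Sed, black lines are list medians, and the dashed line is the median of all genes tested. Among the pathway and family lists the acute-phase genes have a median of 5.83 and the others medians of 0.05 to 0.74, beside 6.88 for the chains.

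Hepatocytes, the usual source of fibrinogen, were examined through 18 marker genes, 12 of which were tested. None of the 12 rose, 5 fell and 7 did not pass the test, with a median of -0.65. Over all genes tested 18.9% rose and 18.5% fell. Their summed level was 1797 to 2036 TPM in Cdo1KKO/Sed and 2731 to 2806 TPM in WT/Sed, most of it from Cyp2e1, which proximal tubule also expresses, at 1300.0 ± 107 CPM in Cdo1KKO/Sed and 2222 ± 136 CPM in WT/Sed. Albumin, the most abundant hepatocyte transcript, had 6.98, 5.53 and 5.58 CPM in Cdo1KKO/Sed and 6.48, 6.45 and 7.69 CPM in WT/Sed (edgeR adjusted p = 0.325). Tat had no count in any library, and Ahsg, Cps1, Plg, Cyp3a11 and Hal had too few to be tested. Ttr, Apoc3, Apoa2 and Apoh also fell, and Apob, Apoa1, Serpina1a, Serpina1c, F2 and Tdo2 did not pass the test. The calls of Apoa2 and Apoh were lost with library size as the only scaling. Apob passed the test upwards (log2 fold change 0.22) when WT/Sed replicate 3 was left out. The part of hepatocyte RNA in the fibrinogen levels was not tested.

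Other cell types were followed in the same way, beside 18.9% of all genes tested that rose and 18.5% that fell. Platelets carry fibrinogen protein. Of 11 platelet markers 4 could be tested and none was called. Apart from Itga2b, those tested rest on few counts, such as 2 to 18 in a library for Pf4. The sum of the platelet markers was 6.97 to 7.87 TPM in Cdo1KKO/Sed and 4.20 to 6.78 TPM in WT/Sed. All 10 markers of injured proximal tubule rose, with a median of 2.42 and a sum of 13060 to 16250 TPM in Cdo1KKO/Sed and 1363 to 1798 TPM in WT/Sed. Most of this sum was Spp1, with 12150, 10360 and 13200 TPM in Cdo1KKO/Sed and 1302, 1095 and 1467 TPM in WT/Sed. All 10 markers of healthy proximal tubule fell, with a median of -0.70. All 7 red blood cell markers rose (1428 to 1480 TPM in Cdo1KKO/Sed, 84.9 to 164 TPM in WT/Sed), as did 4 of 5 tested neutrophil markers (57.0 to 72.2 TPM in Cdo1KKO/Sed, 3.02 to 7.84 TPM in WT/Sed) and 5 of 6 fibroblast and pericyte markers. Of 9 markers of the loop, distal tubule and collecting duct 4 rose and 3 fell, of 5 podocyte markers 1 fell, and of 5 endothelial markers none was called. The part of these cell types in the fibrinogen levels was not tested.

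The genes nearest to the mean profile of the chains over the 6 libraries, by Euclidean distance of centred log2(TPM + 0.1) values, were Orm3 (0.960), Serpina3m (0.965), Areg (0.973), Acod1 (0.995) and Ubd (1.00), among protein-coding genes. The members themselves lay at 0.146 (Fgg), 2.15 (Fgb) and 2.29 (Fga) from their own mean, so Fgb and Fga were farther from it than these 5 genes. Orm3 and Serpina3m encode acute-phase proteins, Areg a ligand of the epidermal growth factor receptor, Acod1 the enzyme that makes itaconate, and Ubd a ubiquitin-like protein induced by cytokines. Ubd had 79.8, 88.2 and 75.9 CPM in Cdo1KKO/Sed and 0.720, 1.12 and 0.876 CPM in WT/Sed, a log2 fold change of 6.52 ± 0.12 (edgeR adjusted p = 4.01e-11). Orm3, Serpina3m and Areg had no count in WT/Sed, and Acod1 had 2, 0 and 0. The distances of all of these but Ubd therefore depend strongly on the pseudocount. Against 3 counts over the WT/Sed group, the limit that a count of 0 allows, Areg was at least 325-fold, Serpina3m at least 229-fold and Orm3 at least 95.3-fold higher.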

How the data were processed

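Kidney RNA of 3 Cdo1KKO/Sed and 3 WT/Sed mice was analysed. The authors deposited whole-number counts per gene and TPM for 55401 genes, and these TPM follow from the counts with 1 length per gene. The submitters' processing notes name fastp 0.23.4 and the builds GRCm38 and mm10. The sources used here give no aligner, counting tool, annotation or strandedness. Libraries are labelled as biological replicates, and nothing more says how far they are independent, so p-values measure the spread between these samples. All replicate pairs differed by more than counting noise (chi-square per degree of freedom of 3.37 or more). Replicate numbers did not pair the samples.

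Gene positions came from GENCODE M21, which holds 54349 of the identifiers with the same version, and promoters from RefSeq (GRCm38.p6). Counts were filtered with filterByExpr, scaled by TMM and compared by the robust quasi-likelihood test of edgeR 4.0.16 in R 4.3.3, with Benjamini-Hochberg adjustment over 17194 genes and a threshold of 0.05. The approximate SE is the absolute log2 fold change over the square root of F. CPM use TMM-scaled library sizes. TPM ratios were compared by exact permutation tests (scipy 1.17.1). Figures were drawn with matplotlib 3.10.9.

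The members, and the 8 pathway or family lists and 11 marker lists, were chosen with earlier results of these data known. Genes named were the members, the 5 nearest protein-coding genes on each side, up to 4 members of each pathway list with the smallest p, the hepatocyte markers and the 5 genes nearest in profile. Others are named as chosen after their values were seen, or complete a count of 5 or fewer. A few genes this rule picks are left out of the text.

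Alternatives were RLE, upper quartile and library size scaling, DESeq2 1.42.0, limma-voom (limma 3.58.1), no filter or at least 1 CPM in 3 libraries, limma on log2(TPM + 1) or log2(TPM + 0.1), a replicate block, each library left out, and other gene lengths.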

Additional observations from a re-analysis of the deposited data

How the results depend on the processing

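Under all 17 alternatives to the fit, the 3 fibrinogen genes stayed called and higher in Cdo1KKO/Sed. The log2 fold change ranged from 4.87 to 5.22 for Fga (largest adjusted p 1.81e-06), from 7.98 to 8.998 for Fgb (1.07e-04) and from 6.72 to 7.18 for Fgg (4.19e-04). Leaving out 1 library gave 4.87 to 5.04 for Fga, 8.33 to 8.998 for Fgb and 6.72 to 7.13 for Fgg. Same-numbered libraries did not deviate together (correlations between -0.00 and 0.01). With the replicate number as a block the values were 4.97, 8.58 and 6.92 for Fga, Fgb and Fgg, and 6146 genes changed. Over all genes 4682 to 7320 changed when 1 library was left out. The balance of directions depended on the scaling: 76.6% of calls were rises with library size only and 84.5% with log2(TPM + 1), against 50.5%, and the median log2 fold change was then 0.18 and 0.19 against 0.01. Small counts of list members that fell mostly vanished under these settings. With the TPM values, or library size only, 3 hepatocyte markers fell in place of 5. The cause was not tested. On the log2(TPM + 1) scale, which understates changes of low genes, F10 had 1.00 against 3.63, Itgam 1.78 against 3.15 and Osmr 2.21 against 3.18. P4hb reversed, from -0.15 to 0.021 with library size only and to 0.11 in each of the fits to TPM, settings that raise the median gene. The ratios of the chains kept their direction without any 1 library, but 3 libraries a group cannot pass the threshold. In WT/Sed, Fgb rests on few counts, which limits its fold more than that of Fga.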
